A study of Mus musculus with 18 samples.

Results

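The Mouse Transcriptome Array 1.0 reports RNA as transcript clusters, each a stretch of the genome on one strand whose probes are summarised to 1 value, and 25795 of its 65956 clusters carry no gene symbol. All of these were kept as members. By the annotation of the array 25684 of them are NonCoding, 64 Coding, 21 Multiple_Complex, 15 Precursor_microRNA, 9 Pseudogene and 2 Small_RNA. The arrays hold infrarenal aorta of 18 male mice, 1 array per mouse: 5 normal aortas of untreated mice, 6 aortas after porcine pancreatic elastase (PPE), which is perfused through the aorta to make an aneurysm, and 7 PPE aortas of mice given the kinase inhibitor lenvatinib (PPE + Lenva systemic). Aneurysms were induced at 10 weeks of age. Lenvatinib was dissolved in DMSO and gavaged once a day at 5 mg/kg from day 7 to day 24, and both PPE groups were killed on day 28. The labels describe the mice as ApoE-deficient, whereas the study's methods name C57BL/6J wild-type animals as the ones given elastase, so the genotype that the groups share is not settled. Since the normal aortas had no operation, effects of surgery and of elastase cannot be told apart. No age at harvest is given for the normal mice, so effects of age cannot be told apart from those of PPE. The sources used here do not say if PPE mice were gavaged with DMSO alone, so effects of lenvatinib and of gavage cannot be told apart either.

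Unnamed clusters of this kind come from several sources. Some are long noncoding RNAs, which are transcribed and often spliced like messenger RNAs but do not encode protein. Others lie inside long genes, where they can report unspliced precursor RNA, retained introns or exons that the annotation of the array lacked, and some lie on the opposite strand as antisense transcripts. In the wall of a healthy aorta most RNA comes from contractile smooth muscle cells, and an aneurysm is known for the loss of their contractile genes and for the entry of monocytes and macrophages.

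The position of each member was taken from the deposited start, end and strand on mouse build mm10. A total of 9774 members overlapped a named cluster on the same strand, and 9567 of these lay wholly inside its span. Another 4353 overlapped a named cluster on the opposite strand only, 3930 lay within 5 kb of one without overlap, and 7738 lay farther away. Of the members within 5 kb, 708 lay upstream and 1281 downstream of a named cluster on their own strand, and 1349 upstream and 592 downstream of one on the other strand. The files give 1 start and 1 end per cluster and no exons, so whether a member is exonic or intronic is not known here. Against the RefSeq annotation of the same build (GRCm38.p6), 11381 members (44.1%) overlapped a gene on their own strand, 3202 a gene on the opposite strand only, and 11212 neither. The members were short, with a median span of 2311 bases, against 5857 bases for clusters with a symbol.

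Members were also dim. Their median log2 level in the deposited group averages was 3.91 in normal aorta, 3.87 in PPE and 3.88 in PPE + Lenva systemic, against 4.31, 4.30 and 4.32 for clusters with a symbol, and 5.27% of members reached a log2 level of 8 in normal aorta, against 13.2%. At the other end 31 members stood at the highest value of the scale, 19.93, in all 3 averages and could not show a difference. Members that overlapped a named cluster on the same strand were the brightest class by median, at 4.52 in normal aorta. Log2 values of single arrays were deposited for 3726 members. The other members were tested from the deposited group averages and SDs. The deposited averages are not the plain means of the arrays, so a difference fitted to single arrays can depart from the difference of the averages printed beside it. Within each group the arrays had median correlations between 0.972 and 0.985, and no array stood apart.

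Several long genes held many members on their own strand, and in some of them members on either side of a further start site that RefSeq annotates inside the gene differed in their change between PPE and normal aorta. Promoter windows of 5 such start sites, each 250 bases before to 50 bases after the start in RefSeq (GRCm38.p6), are printed because the values described further on are ordered by these starts. Capitals mark a CArG box, the element bound by serum response factor in many smooth muscle genes, which was searched on both strands without mismatches and was the only motif searched.
Dmd: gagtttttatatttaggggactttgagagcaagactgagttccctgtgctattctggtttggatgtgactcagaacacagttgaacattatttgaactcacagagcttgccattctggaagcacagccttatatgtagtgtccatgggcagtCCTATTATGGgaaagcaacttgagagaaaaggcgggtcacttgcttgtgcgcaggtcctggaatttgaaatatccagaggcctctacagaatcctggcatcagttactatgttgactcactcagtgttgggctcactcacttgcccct
Schip1: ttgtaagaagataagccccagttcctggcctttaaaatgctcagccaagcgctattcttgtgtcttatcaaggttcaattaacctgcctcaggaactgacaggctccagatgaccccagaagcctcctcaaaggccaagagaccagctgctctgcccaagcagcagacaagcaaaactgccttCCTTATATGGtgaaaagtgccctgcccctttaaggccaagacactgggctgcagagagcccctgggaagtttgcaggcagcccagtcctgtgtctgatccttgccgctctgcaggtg
Lsamp: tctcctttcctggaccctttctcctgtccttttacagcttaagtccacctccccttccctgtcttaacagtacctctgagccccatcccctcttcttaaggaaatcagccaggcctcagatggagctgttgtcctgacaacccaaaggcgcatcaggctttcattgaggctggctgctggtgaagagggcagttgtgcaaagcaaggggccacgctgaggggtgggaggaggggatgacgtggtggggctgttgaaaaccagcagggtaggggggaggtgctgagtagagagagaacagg
Celf2: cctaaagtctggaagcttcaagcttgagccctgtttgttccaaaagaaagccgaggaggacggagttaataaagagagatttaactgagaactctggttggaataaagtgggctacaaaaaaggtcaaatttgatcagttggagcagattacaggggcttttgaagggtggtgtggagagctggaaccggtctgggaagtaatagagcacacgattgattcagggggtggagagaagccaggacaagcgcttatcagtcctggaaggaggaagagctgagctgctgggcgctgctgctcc
Robo1: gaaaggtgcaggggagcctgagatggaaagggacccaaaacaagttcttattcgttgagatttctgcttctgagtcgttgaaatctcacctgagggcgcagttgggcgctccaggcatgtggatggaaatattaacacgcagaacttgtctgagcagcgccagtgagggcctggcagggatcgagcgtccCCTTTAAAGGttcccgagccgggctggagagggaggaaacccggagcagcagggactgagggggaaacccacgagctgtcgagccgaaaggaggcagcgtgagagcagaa
The Dmd window lies at chrX:82948620-82948919 on the plus strand, the Schip1 window at chr3:68467933-68468232 on the plus strand, the Lsamp window at chr16:41532576-41532875 on the plus strand, the Celf2 window at chr2:7081253-7081552 on the minus strand and the Robo1 window at chr16:72662899-72663198 on the plus strand. A CArG box was present in 3 of 32 windows of the 18 genes that were looked at, which are the windows of Dmd, Schip1 and Robo1 above. The window at the internal start of Sgcd, described further on, is not printed and held none. Of all 32851 RefSeq promoter windows 535 (1.63%) held one. A match describes the letters only, and the 18 genes were chosen after their values were seen. The genome sequence of the members themselves was not used here.

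In PPE vs. normal aorta, members fell far more often than they rose. Among the 8 largest falls were members in genes of contractile smooth muscle: Dmd (dystrophin), Synpo2 (an actin-binding protein of muscle), Itga8 (integrin alpha 8) and Myocd (myocardin, the coactivator of serum response factor). Members in or beside Xkr4 and Sytl5 were among them too. With limma and Benjamini-Hochberg adjustment over all 65956 clusters, 906 members (3.51%) were called lower and 93 (0.361%) higher at an adjusted p under 0.05. Over all clusters 2.62% were called lower and 1.41% higher, 4.03% in either direction. At an unadjusted p under 0.05, 3341 members (13%) were lower and 1014 (3.93%) higher, and over all clusters 11.2% were lower and 7.57% higher. Clusters with a symbol were split evenly, with 819 (2.04%) lower and 838 (2.09%) higher. Of the called members 359 fell and 47 rose by at least 2-fold. Over all 65956 clusters 551 fell and 436 rose that far, and among the 40161 clusters with a symbol 192 and 389. The count of rises depended on single arrays, from 25 without normal aorta replicate 3 to 196 without PPE replicate 5. Of the 999 called members 22 lay outside the table of single-array values, which is a selected set: 81.1% of its clusters differed between the 3 groups at an unadjusted p of 0.05 or less, against 4.8% of the others.

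The falls were concentrated among members on the same strand as a named cluster, where 724 of 9774 (7.41%) were lower and 60 (0.614%) higher. The other classes held fewer calls. Members opposite a named cluster had 58 lower (1.33%) and 7 higher, those within 5 kb 52 lower (1.32%) and 18 higher, and those farther away 72 lower (0.93%) and 8 higher. The share called also varied with level. Among members with a mean log2 level of 6 to 8, 12.7% were lower, against 4.13% of clusters with a symbol at the same level, and at a level of 8 to 10 the shares were 16.9% and 4.02%. Below a level of 4 they were 0.82% and 0.625%. For rises the order was the other way round, with 1.85% of members and 6.67% of clusters with a symbol at a level of 8 to 10. Whether the difference between the classes goes beyond level was not tested.

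**Figure D1:**
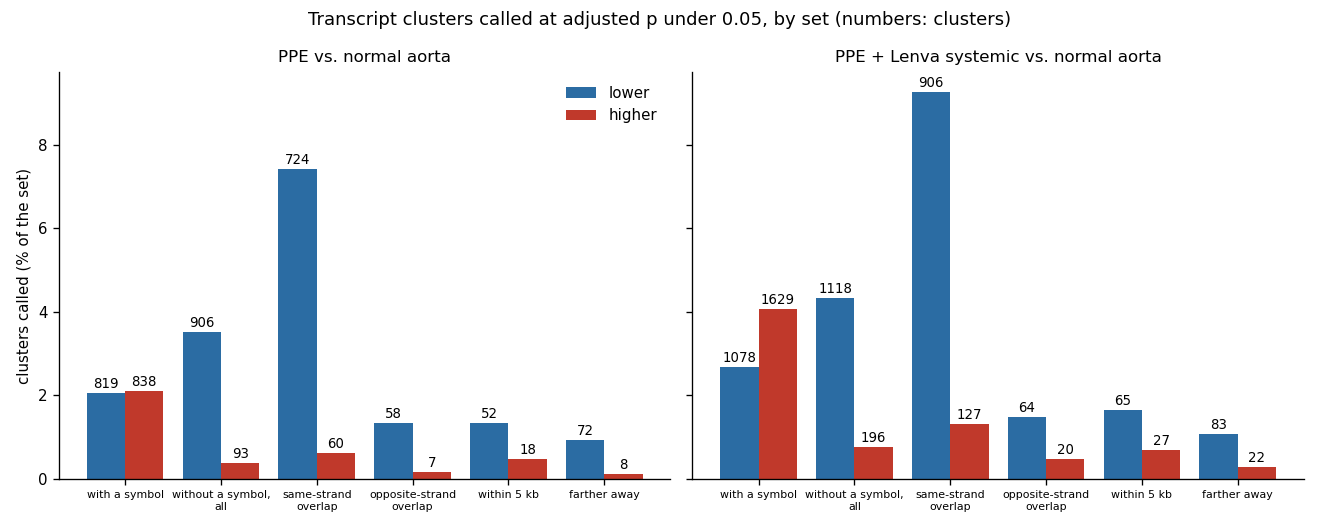
Share of clusters called at an adjusted p under 0.05 (percent of each set, y axis) for clusters with a symbol, all members and the 4 position classes of members, in PPE vs. normal aorta (left) and PPE + Lenva systemic vs. normal aorta (right). Numbers over the bars count called clusters, and the tallest bars, 724 and 906 lower, belong to members on the same strand as a named cluster.

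**Figure D2:**
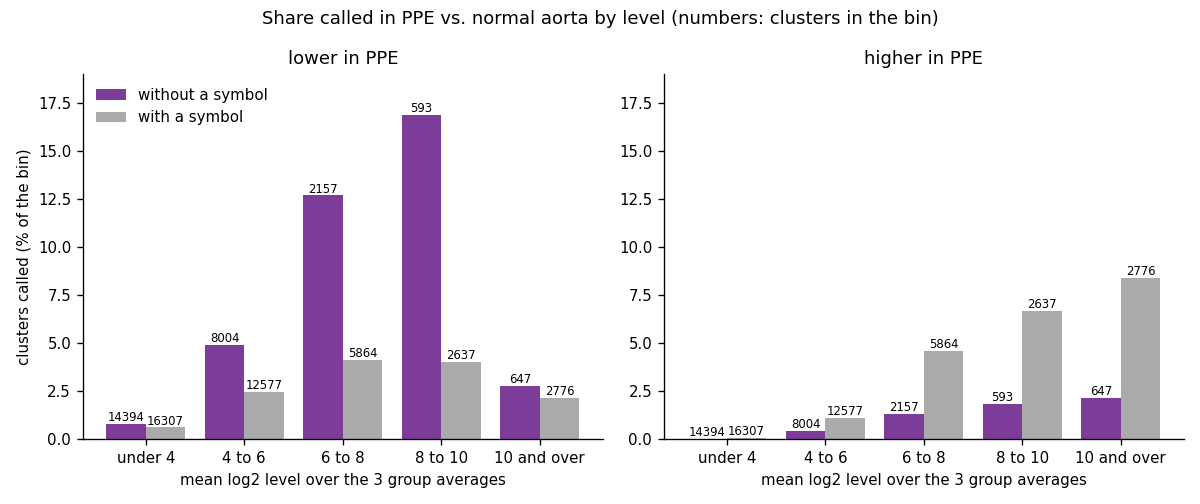
Share of clusters called lower (left) and higher (right) in PPE vs. normal aorta (percent, y axis) by mean log2 level over the 3 group averages (x axis), for clusters without (purple) and with a symbol (grey), with the number of clusters in each bin over its bar. Between levels of 6 and 10 members fell in 12.7% and 16.9% of cases and rose in 1.34% and 1.85%.

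The largest fall was that of TC0X00000817.mm.1, which lies in Dmd at chrX:83932958-83935191 on the plus strand. Its log2 signal was 9.21, 9.46, 9.93, 9.95 and 10.28 on the 5 arrays of normal aorta, ran from 5.28 over a median of 5.69 to 6.05 in PPE, and from 5.38 over 6.71 to 7.62 in PPE + Lenva systemic. Every PPE array and every treated array lay below every normal array. The fall in PPE was 4.10 on the log2 scale, at a difference of -4.10 ± 0.30 (SE, n = 5 and 6, adjusted p = 1.54e-06 with limma), and the treated aortas differed from normal by -3.16 (adjusted p = 1.89e-05). A second Dmd member, TC0X00000811.mm.1 at chrX:82961909-82963541, read 10.80, 12.24, 12.49, 12.54 and 13.36 in normal aorta, 7.73 to 9.66 with a median of 8.32 in PPE and 7.70 to 11.69 with a median of 9.33 after lenvatinib. It fell by 3.88 ± 0.65 (adjusted p = 0.0026), and here some of the treated arrays reached into the normal range. The cluster that carries the symbol Dmd fell by 3.41 ± 0.46 (adjusted p = 0.000453).

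TC0300002875.mm.1 lies in Synpo2 at chr3:123209400-123211947 on the minus strand. It read 10.45, 11.08, 11.17, 11.62 and 11.68 in normal aorta, 7.28 to 8.31 (median 7.54) in PPE and 7.75 to 9.55 (median 8.49) in PPE + Lenva systemic. The PPE arrays did not overlap the normal arrays, at a difference of -3.52 ± 0.31 (adjusted p = 1.21e-05). TC0200002973.mm.1 in Itga8 differed by -3.36 ± 0.48 (adjusted p = 0.000646), from 11.13, 11.62, 11.85, 12.26 and 13.44 in normal aorta to 8.35 to 9.06 in PPE. TC1100002984.mm.1 in Myocd, at chr11:65247923-65248954, read 7.90, 10.24, 10.41, 10.65 and 11.80 in normal aorta and 6.40 to 7.38 (median 6.80) in PPE. It differed by -3.33 ± 0.54 (adjusted p = 0.00184), while the cluster named Myocd differed by -1.02 ± 0.32 and was not called (adjusted p = 0.0845).

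Large falls outside the contractile genes were seen in Xkr4, which encodes a member of the XK-related membrane protein family. All 7 members in Xkr4 were called lower, at -3.88 to -0.47 on the log2 scale, against -1.98 ± 0.26 for the named cluster. TC0100001896.mm.1, at chr1:3592892-3595903 on the minus strand, read 8.75, 9.0, 9.11, 9.24 and 9.64 in normal aorta, 4.58 to 6.25 (median 5.09) in PPE and 4.48 to 6.14 (median 5.24) in PPE + Lenva systemic. Both PPE groups lay wholly below the normal arrays and side by side, at -3.88 ± 0.29 (adjusted p = 1.54e-06) in PPE and -3.94 (adjusted p = 1.26e-06) after lenvatinib.

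**Figure D3:**
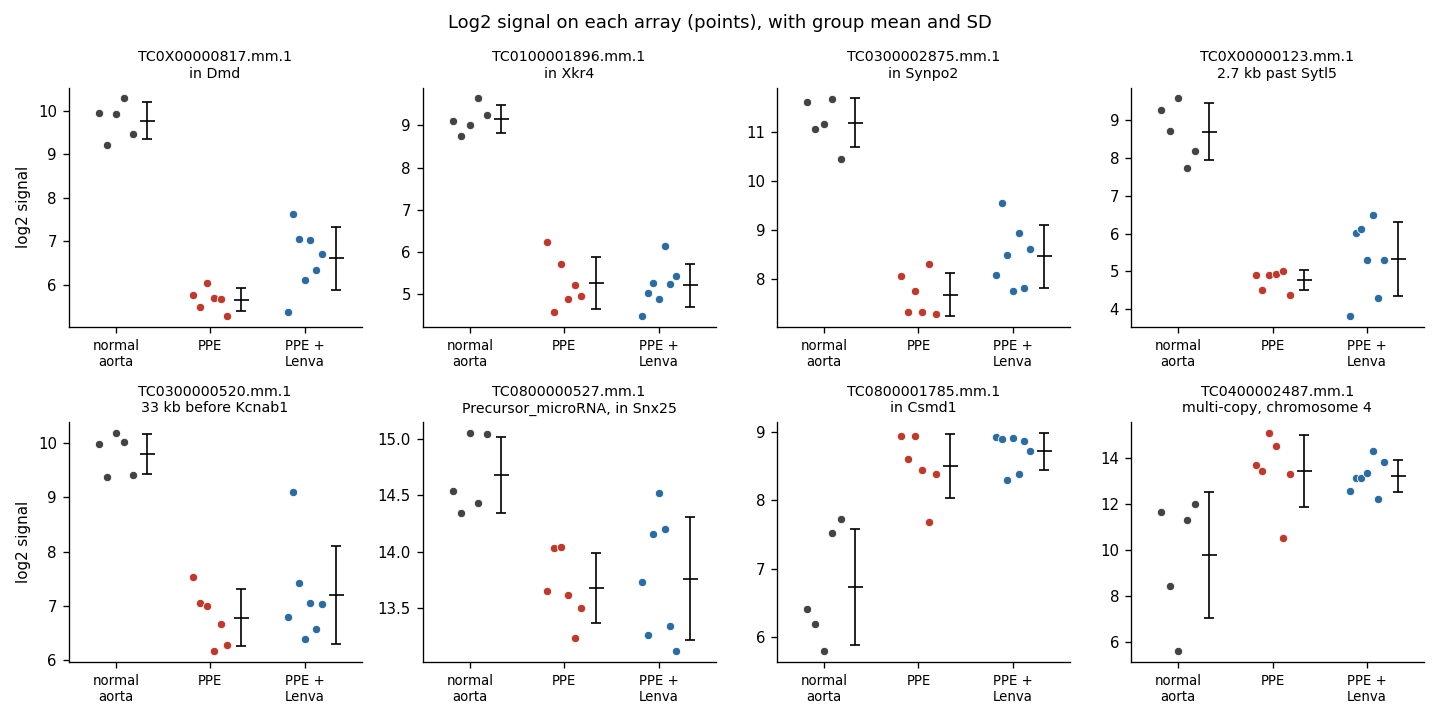
Log2 signal (y axis) on each array for 8 members, by group on the x axis (5 normal aorta, 6 PPE, 7 PPE + Lenva systemic), with bars for the mean and SD. In the 6 panels of members that fell every PPE array lies below every normal array, and in the panels for Csmd1 and for the multi-copy cluster of chromosome 4 most PPE arrays lie above the normal arrays.

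Counted by named cluster, 4408 named clusters held 1 or more members on their own strand. In 325 of them at least 1 member fell, in 49 at least 1 rose, and in 0 did members move both ways. A group of 34 named clusters held 5 or more falling members each, 291 in all. The spans of these 34 ran from 139 to 2391 kb. Over the 724 falling same-strand members the median span of the named cluster was 346 kb, against 171 kb over all 9774 same-strand members. In these medians a named cluster counts once for each member it holds. All 11 members of Unc5c (a netrin receptor), 11 of B3galt1 (a galactosyltransferase), 10 of Pcdh7 (a protocadherin), 10 of Tmtc2, 8 of Cacnb2 (a beta subunit of voltage-gated calcium channels) and 7 of Lpp (a protein of focal adhesions in smooth muscle) were called lower. Auts2 had 19 of 29 lower and Prkg1, the cGMP-dependent kinase that relaxes smooth muscle, 18 of 24. These genes were picked after their values were seen.

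The named clusters of these genes moved in the same direction. The members in Unc5c differed by -2.55 to -0.71 and the Unc5c cluster by -1.47 ± 0.19, and those in Pcdh7 by -2.75 to -1.28 and the Pcdh7 cluster by -2.18 ± 0.32. In Unc5c, TC0300001438.mm.1 read 8.27, 8.64, 8.87, 9.13 and 9.13 in normal aorta and 5.84 to 6.95 (median 6.15) in PPE, with no overlap (-2.55 ± 0.25, adjusted p = 2.75e-05). In Cacnb2, TC0200000255.mm.1 read 8.86, 9.51, 9.92, 9.99 and 10.00 in normal aorta and 6.05 to 7.43 (median 7.00) in PPE (-2.75 ± 0.38, adjusted p = 0.0005), against -1.14 ± 0.18 for the named cluster. A member can thus fall further than the cluster that names its gene. Over all 9774 same-strand pairs the differences of member and named cluster had a Pearson correlation of 0.673, and of 0.792 over the 2126 pairs with a member level of 6 or more. Of the 784 called same-strand members 96.6% had the sign of their named cluster, against 65.4% of all 9774. A named cluster that was called too stood beside 61.5% of the 784, against 14.3% of all 9774. The correlation was 0.235 for members on the opposite strand, 0.301 within 5 kb and 0.116 farther away, and at a level of 6 or more it was 0.316, 0.609 and 0.211 over 301, 327 and 632 pairs. Of the 70 called members within 5 kb 90% had the sign of the named cluster, against 69.2% of the 65 on the opposite strand and 70.1% of the 77 farther away that could be paired. Over all pairs, called or not, these shares were 52.3%, 52.2% and 49%. These pairs share arrays and genes share spans, so the values are descriptions.

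**Figure D4:**
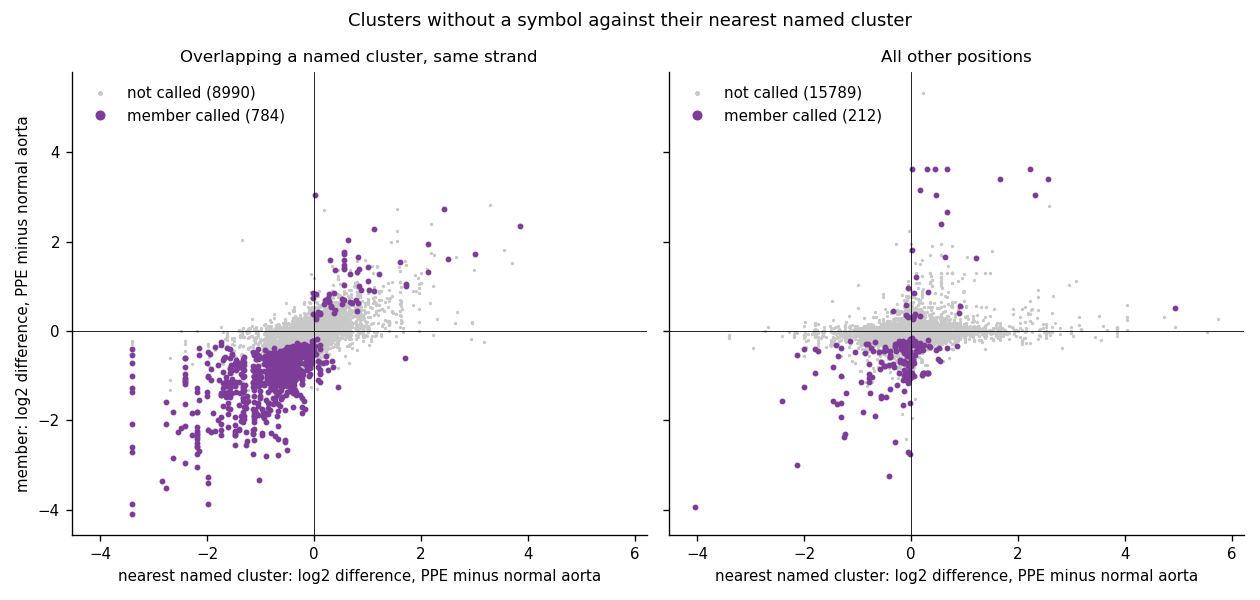
Log2 difference between PPE and normal aorta of each member (y axis) against that of its nearest named cluster (x axis), for same-strand overlap (left) and all other positions (right). Called members (784 left, 212 right, purple) lie mostly in the lower left of the left panel. The right panel pools opposite-strand, within-5-kb and farther pairs, whose correlations over all pairs are 0.235, 0.301 and 0.116. Members on contigs without a named cluster are not drawn.

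In some genes members were called lower only along a stretch, while members outside it were often too dim to show such a fall. In Dmd, RefSeq annotates a start at chrX:82948870, inside the span. Both members before it were dim and were not called, at -0.23 ± 0.09 for TC0X00000809.mm.1 and -0.23 ± 0.12 for TC0X00000810.mm.1. The first member after it, TC0X00000811.mm.1, described above, lies 13.9 kb downstream, and 11 of the 13 members after the start were called lower. The window at this start holds the CArG box printed above. Both members before the start averaged 4.24 and 3.44 in normal aorta, near the low end of the scale, so a fall as large as those farther on could not have been measured there.

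Sgcd encodes delta-sarcoglycan, a partner of dystrophin in the membrane complex of muscle. RefSeq annotates a further start 610.1 kb into the gene, and the 3 members before it differed by -0.12 to 0.01 at levels of 3.71 to 3.84, near the low end of the scale, and all 6 members after it, at chr11:47379325, were lower, by -1.88 to -0.78. The brightest of them, TC1100002616.mm.1, read 12.36, 12.61, 12.92, 13.15 and 13.33 in normal aorta and 10.56 to 11.52 (median 10.97) in PPE (-1.88 ± 0.42, adjusted p = 0.0177). In Schip1 3 members before the start at chr3:68468183 lay at -0.10 to 0.03 and 3 after it at -1.56 to -1.0, all called. The members before these starts of Sgcd and Schip1, the latter at levels of 3.67 to 3.77, could not have shown falls of that size, and the first members after them lie 166.0 kb and 79.9 kb away, so the place where the change begins is not known in either gene. Its first member after the start, TC0300000562.mm.1, read 7.53, 8.21, 8.31, 8.37 and 8.54 in normal aorta and 6.03 to 7.28 (median 6.6) in PPE, again without overlap.

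Lsamp, a cell adhesion molecule best known from the limbic system, held 43 members, more than any other named cluster. None of the 32 members before its start at chr16:41532826 was called, at -0.33 to 0.13, and 7 of 11 after it were lower. The 32 members had a median level of 3.60 in normal aorta, which limits the fall they could show. The member nearest to that start, TC1600000606.mm.1 at chr16:41537862-41539254, read 4.45, 4.65, 4.71, 4.84 and 4.89 in normal aorta, 3.59 to 4.02 (median 3.82) in PPE and 3.62 to 3.99 (median 3.75) after lenvatinib. The groups did not overlap (-0.90 ± 0.09, adjusted p = 5.51e-05), though all these levels are low. On the other strand TC1600001623.mm.1, which crosses this stretch of Lsamp, moved the other way. It read 3.56, 3.65, 3.81, 3.82 and 3.91 in normal aorta and 4.0 to 4.45 (median 4.19) in PPE (0.46 ± 0.09, adjusted p = 0.00906).

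Celf2 encodes an RNA-binding protein that regulates splicing, and its members fell in 1 stretch of the gene. The 3 members before the start at chr2:7081302 differed by -0.07 to 0.06 at levels of 3.15 to 3.25, below the 25th percentile of all clusters (3.66), where no fall of this size could have been measured, so these data do not place the upstream end of the change. The 12 members between this start and that at chr2:6721662 had differences of -1.14 to -0.57, of which 4 were called in PPE and all 12 in PPE + Lenva systemic vs. normal aorta. The 6 members after the second start differed by -0.07 to 0.54 at levels of 5.54 to 7.75, none of them called. TC0200002915.mm.1 in the middle stretch read 9.83, 9.90, 10.30, 10.70 and 10.83 in normal aorta, 8.60 to 9.86 (median 9.04) in PPE and 7.89 to 9.27 (median 8.70) after lenvatinib. The PPE range touched the normal range and the treated range did not, at -1.14 ± 0.29 (adjusted p = 0.0374) and -1.66 (adjusted p = 0.00274). The cluster named Celf2 differed by 0.12 ± 0.10 (adjusted p = 0.608).

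Robo1, a receptor for Slit guidance proteins, showed the reverse order. Its named cluster begins at chr16:72663149, the start in the window printed above, and did not move (0.02 ± 0.06, adjusted p = 0.927). RefSeq extends the gene upstream to chr16:72027518, and of the 14 members in that upstream stretch 9 were lower, at -1.35 to -0.50, while the 9 members after the start lay at -0.16 to 0.09 with none called. TC1600000824.mm.1 at chr16:72176071-72177315 read 5.17, 5.87, 6.11, 6.27 and 6.33 in normal aorta, 4.32 to 5.00 (median 4.58) in PPE and 4.15 to 4.65 (median 4.45) after lenvatinib. Neither PPE group overlapped the normal arrays (-1.35 ± 0.17, adjusted p = 0.000336, and -1.56, adjusted p = 8.38e-05). Over all RefSeq genes with 3 or more members on each side of an internal start, 55 starts in 42 genes, the median after the start was lower by 0.5 or more at 4 starts and higher by 0.5 or more at 6. The median level on the side that moved less was often low, as at 3.60 before the start of Lsamp and 3.84 after that of Robo1.

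**Figure D5:**
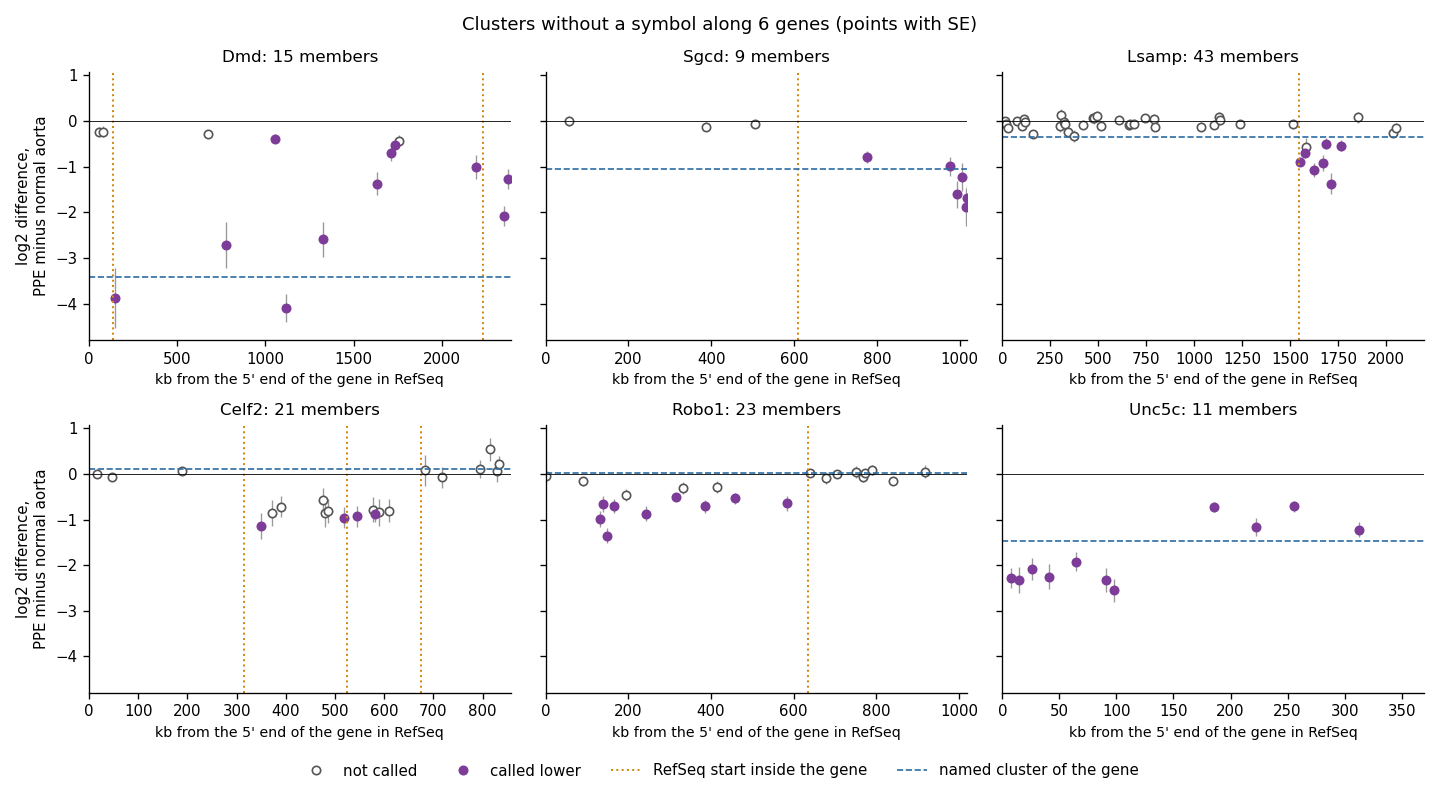
Log2 difference between PPE and normal aorta with its SE (y axis) of each member by its distance in kb from the 5' end of the gene in RefSeq (x axis), for 6 genes. Filled points were called lower, dotted lines mark further RefSeq starts inside the gene and dashed lines the difference of the named cluster. In Lsamp the 7 called members follow the dotted line, in Robo1 all 9 called members precede it, and in Unc5c all 11 members were called.

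Other members extended a gene beyond its array cluster. TC0X00000123.mm.1 at chrX:9997199-9999353 lies 2656 bases past the end of the cluster named Sytl5, a Rab effector of vesicle transport, and overlaps the end of the RefSeq gene. It read 7.75, 8.18, 8.71, 9.27 and 9.58 in normal aorta, 4.36 to 5.00 (median 4.90) in PPE and 3.81 to 6.48 (median 5.29) after lenvatinib. All PPE arrays lay below the normal arrays (-3.93 ± 0.43, adjusted p = 7.4e-05), and the cluster named Sytl5 fell by 4.04 ± 0.34. TC0300000520.mm.1 at chr3:65075990-65076830 lies 32538 bases before the cluster of Kcnab1, a beta subunit of potassium channels, and within the RefSeq gene. It read 9.37, 9.42, 9.98, 10.02 and 10.18 in normal aorta and 6.17 to 7.54 (median 6.83) in PPE (-3.01 ± 0.38, adjusted p = 0.000304), the largest called change among members farther than 5 kb from a named cluster. Of the 80 called members in that class 36 overlapped a RefSeq gene on their strand (45%), against 27% of all 7738.

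Of the 999 called members 297 overlapped no RefSeq gene on either strand, against 11212 of all 25795 members. Farther than 5 kb from a named cluster the counts were 44 of 80 called members and 5270 of all 7738. Called members thus lay outside RefSeq genes less often than members in general. TC1000002190.mm.1 at chr10:56909607-56914765 on the minus strand, chosen after its values were seen, is 161353 bases from the nearest named cluster. It read 6.07, 6.85, 7.07, 7.71 and 7.97 in normal aorta, 3.78 to 4.69 (median 4.54) in PPE and 4.09 to 5.15 (median 4.67) after lenvatinib, with both PPE groups below every normal array (-2.70 ± 0.27, adjusted p = 3.79e-05). On the strand opposite Igf1r, the receptor of insulin-like growth factor 1, TC0700003456.mm.1 at chr7:68147581-68148955 read 9.27, 9.81, 10.20, 10.89 and 11.37 in normal aorta and 6.65 to 7.51 (median 7.11) in PPE. Its difference was -3.24 ± 0.33 (adjusted p = 4.24e-05), against -0.41 for Igf1r itself (adjusted p = 0.101). RefSeq names a gene on its own strand there, Gm51487. Of 65 called members opposite a named cluster 15 had a called partner, with the same sign in 13 pairs and opposite signs in 2.

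Rises were fewer. The 8 largest were those of clusters on chromosomes 4 and 13 and on contigs that belong to chromosome 4, where 5 clusters share an identical set of array values and 2 others a second set, so they are not independent measurements. TC0400002487.mm.1 stands for the first set. It read 5.59, 8.40, 11.28, 11.66 and 11.97 in normal aorta, 10.53 to 15.07 (median 13.54) in PPE and 12.23 to 14.31 (median 13.12) after lenvatinib. The PPE range overlapped the normal range and the treated range did not, at 3.64 ± 0.99 (adjusted p = 0.0469) and 3.43 (adjusted p = 0.0415). For this member the deposited averages in place of the arrays gave 2.33 (adjusted p = 0.213 in limma) and 1.64 (adjusted p = 0.403), and the fit without normal aorta replicate 3 gave 2.59 (adjusted p = 0.101) and 2.38 (adjusted p = 0.0997), so neither call held. TC1300001359.mm.1 on chromosome 13 rose by 3.15 ± 0.78 (adjusted p = 0.0313), from 8.62, 9.48, 10.91, 12.43 and 12.61 to 11.82 to 15.17. This call was lost without normal aorta replicate 1, 2 or 3 or PPE replicate 1, 2, 3 or 4, at adjusted p of up to 0.094 in limma. In all, 69 of the 3726 members with array values fell into 15 such shared sets, and the 88 rises among them were 83 distinct sets of values.

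Of the named clusters with a rising member, 5 held 2 or more. Csmd1, a large membrane protein that inhibits complement, had 8 of 18 members higher, at 0.70 to 1.78, and its named cluster rose by 0.57 ± 0.13 (adjusted p = 0.0173). TC0800001785.mm.1 read 5.79, 6.18, 6.41, 7.52 and 7.72 in normal aorta and 7.68 to 8.95 (median 8.52) in PPE, with the lowest PPE array just below the highest normal array (1.78 ± 0.31, adjusted p = 0.00327). TC1300000426.mm.1 in Ly86, the partner of a toll-like receptor homologue on B cells and macrophages, read 4.57, 4.71, 5.25, 5.58 and 6.28 in normal aorta and 5.69 to 8.66 (median 7.82) in PPE. It rose by 2.35 ± 0.49 (adjusted p = 0.0121) and the Ly86 cluster by 3.85 ± 0.84. Runx1, a transcription factor of blood cells, had 2 of 3 members higher, Rftn1, a lipid raft protein of lymphocytes, 2 of 3, Gm27177 2 of 3 and Rreb1, a zinc finger transcription factor, 2 of 6. The largest difference of any member was not called: TC1200002553.mm.1, chosen after its values were seen, lies 1023 bases from the immunoglobulin gene Ighv2-1 and differed by 5.32 ± 1.71 (adjusted p = 0.0881), with PPE arrays from 8.35 to 19.68.

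Members that overlap or lie within 5 kb of listed genes of one cell type were counted next. Over all clusters 2.62% were called lower and 1.41% higher in PPE, and over same-strand members 7.41% and 0.614%, and the counts below stand beside these shares. Near 30 genes of contractile smooth muscle lay 97 members, of which 56 were lower and 0 higher in PPE, with a median difference of -0.85 against -0.02 over all clusters. Prkg1 held 18 of them, Dmd 11, Cacnb2 8, Cacna1c (the pore of the L-type calcium channel) 7, Synpo2 3 and Ppp1r12b 2, and Itga8, Myocd, Tagln, Pdlim3, Nexn, Cald1 and Kcnma1 held 1 each. The named genes of this list moved with their members, as 22 of 30 were lower with a median of -1.34. Near genes of the extracellular matrix 5 of 22 members were lower, 3 of them in Ltbp1, and near nerve and Schwann cell genes 4 of 7, all in Ncam1. Endothelial genes had 1 of 7 lower, beside Clec14a (-1.40 ± 0.20, adjusted p = 0.000646), and imprinted and long noncoding RNA hosts 5 of 30, all in Airn, the antisense RNA of the Igf2r locus.

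Members near monocyte and macrophage genes were few, 15 in all, with 1 called higher, against 1.41% of all clusters. At an unadjusted p under 0.05 in limma 3 of the 15 differed, and the difference was below 0 in 2 of them all. Of the named genes of that list 23 of 29 rose, with a median of 3.14 over the list. No member near lymphocyte (13), adipocyte (4), skeletal and cardiac muscle (3) or red blood cell (4) genes was called by limma, with 2, 0, 0 and 0 at an unadjusted p under 0.05. Among the named genes of those lists 3 of 18 lymphocyte genes rose, 0 of 10 adipocyte and 0 of 10 skeletal and cardiac muscle genes were called, and 1 of 6 red blood cell genes was lower, and 5 of 19 endothelial genes were lower. Average levels of skeletal and cardiac muscle genes stayed between 3.73 and 5.44 in normal aorta, while contractile smooth muscle genes spanned 6.11 to 19.93. In whole tissue, fewer smooth muscle cells and less RNA per cell cannot be told apart, and the part of these cell types in the members' changes was not tested.

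Of the 15 members of the Precursor_microRNA group 3 (20%) were called in PPE vs. normal aorta, and all 3 fell, against 2.62% of all clusters called lower. The difference was below 0 in 10 of the 15, as it was in 15618 of the 25684 NonCoding members. TC0800000527.mm.1, opposite Snx25, read 14.34, 14.43, 14.54, 15.04 and 15.05 in normal aorta, 13.24 to 14.04 (median 13.63) in PPE and 13.12 to 14.52 (median 13.73) after lenvatinib (-1.0 ± 0.24, adjusted p = 0.0278). TC0300000840.mm.1 at chr3:93052583-93052672 read 11.91, 12, 12.18, 12.37 and 12.41 in normal aorta and 10.71 to 11.78 (median 11.08) in PPE (-1.01 ± 0.27, adjusted p = 0.0458), also without overlap. That call was lost with the variance prior of the array table (adjusted p = 0.0528) and without any 1 of the 5 normal arrays or PPE replicate 1, 2, 4, 5 or 6, or PPE + Lenva systemic replicate 1 or 3, at adjusted p of up to 0.11 in limma. The median over the 15 was -0.50 in PPE and -0.73 in PPE + Lenva systemic vs. normal aorta, where 6 (40%) were lower, against 3.33% of all clusters. Of the 64 Coding members 8 rose (12.5%) and 2 fell (3.12%), against 1.41% and 2.62% of all clusters. The largest change was that of TC0400000385.mm.1 of the chromosome 4 repeats (3.05 ± 0.74, adjusted p = 0.0274). This call was lost with the deposited averages (adjusted p = 0.102 in limma) and without normal aorta replicate 2 or 3 or PPE replicate 1, 3 or 4. No member of the Multiple_Complex, Pseudogene and Small_RNA groups was called in PPE vs. normal aorta by limma, though 4, 3 and 0 of them had an unadjusted p under 0.05.

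RefSeq places 12 microRNA hairpins inside 10 members that span more than the hairpin. The array does not separate the mature microRNA from the longer transcript. None of the 10 was called in PPE vs. normal aorta by limma, with 2 at an unadjusted p under 0.05, and 1 was called in PPE + Lenva systemic vs. normal aorta. The mature sequence in that member and those of the let-7 group are shown from RefSeq (GRCm38.p6) with the seed, bases 2 to 8, in capitals. The 3 let-7 sequences share 1 seed, which differs from that of miR-1928.
miR-1928: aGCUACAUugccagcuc
let-7a-5p: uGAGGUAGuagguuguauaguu
let-7d-5p: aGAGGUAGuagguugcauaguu
let-7f-5p: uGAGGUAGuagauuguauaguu
TC0100002575.mm.1, which holds miR-1928 (chr1:74206562-74206578, minus strand), had deposited averages of 11.67 in normal aorta, 13.37 in PPE and 13.81 after lenvatinib. The differences fitted to its single arrays were 2.03 ± 0.63 in PPE (adjusted p = 0.078) and 2.29 ± 0.61 after lenvatinib (adjusted p = 0.0336). TC1300001937.mm.1, the transcript of let-7a, let-7d and let-7f on chromosome 13, averaged 6.87, 6.65 and 6.61 and was not called (-0.22 ± 0.18, adjusted p = 0.61).

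By chromosome, falls are given beside the share of 3.51% over all members, with no test of the difference. On chromosome X 57 of 793 members (7.19%) were lower and 0 higher, 11 of them in Dmd and 6 in Arhgap6, which are not independent, and on chromosome 16 62 of 994 (6.24%) were lower, with members in or near Zbtb20, Mir99ahg, Lsamp and Lpp. Chromosome 7 had the lowest share of the larger chromosomes, 2.11%. On unplaced and random contigs 10 of 101 members (9.9%) were higher and 2 (1.98%) lower, against 0.361% and 3.51% of all members. Some clusters on these contigs share an identical set of array values, so they are not independent either. Of 76 members on chromosome Y and 4 of the mitochondrial genome 0 were called by limma, with 5 and 0 at an unadjusted p under 0.05.

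Lenvatinib moved no member past the threshold. In PPE + Lenva systemic vs. PPE 0 of 25795 members were called, as were 0% of all clusters, and the smallest adjusted p among members was 0.68. At an unadjusted p under 0.05, 941 members (3.65%) were higher and 647 (2.51%) lower, against 3.41% and 2.4% of all clusters. In 15 of 3726 members (0.403%) all treated arrays lay above all PPE arrays and in 8 (0.215%) below, against 0.387% and 0.27% of the 11121 clusters with array values. TC0100003744.mm.1, which overlaps the RefSeq gene Gm34732, had the smallest p. It read 3.92, 3.92, 3.94, 3.99 and 4.01 in normal aorta, 3.75 to 4.04 (median 3.79) in PPE and 4.04 to 4.2 (median 4.09) after lenvatinib, a difference of 0.27 ± 0.05 (adjusted p = 0.68 in limma) at a level near the lower end of the scale. TC1600000131.mm.1, opposite Txndc11, read 6.6, 6.66, 6.82, 7.15 and 7.16 in normal aorta, 7.14 to 7.62 (median 7.44) in PPE and 6.15 to 7.04 (median 6.72) after lenvatinib (-0.70 ± 0.13, adjusted p = 0.747 in limma).

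Members that fell most in PPE had mixed values under lenvatinib. The Dmd member TC0X00000817.mm.1 was higher by 0.95 ± 0.28 in treated than in PPE aortas, with an adjusted p of 0.782 in limma, and the Synpo2 member by 0.78. All 10 Pcdh7 members were higher, by 0.38 to 0.78, and all 11 Unc5c members, by 0.05 to 0.66, and all 7 Lpp members, by 0.30 to 0.82, none of them called. These genes were picked after their values were seen. In other genes with falling members the values were split or lower, with 15 of 29 members above 0 in Auts2, 2 of 13 in Mir99ahg and 2 of 8 in Nfia. Members of 1 gene share a transcript and are not replicates. The 7 Xkr4 members lay at -0.12 to 0.19, and the 97 members near contractile genes had a median of 0.12, against 0.39 for the named genes of that list. This comparison and PPE vs. normal aorta share the PPE arrays, so the values stand side by side and no relation between them is read from them.

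PPE + Lenva systemic vs. normal aorta gave 1118 members lower (4.33%) and 196 higher (0.76%), against 3.33% and 2.77% of all clusters (6.1% in either direction), and 1078 lower and 1629 higher among clusters with a symbol. At an unadjusted p under 0.05, 3395 members (13.2%) were lower and 1199 (4.65%) higher, against 11.2% and 8.56% of all clusters. As in PPE, the count of called rises depended on single arrays, from 56 without normal aorta replicate 3 to 250 without PPE + Lenva systemic replicate 3. Same-strand members again held most calls, with 906 lower (9.27%) and 127 higher. In the table of single-array values 578 of 3726 members (15.5%) had all treated arrays below all normal arrays, against 9.51% of the 11121 clusters there. For PPE vs. normal aorta these shares were 19.2% and 13.3%. The largest falls were in Xkr4, Sytl5, Itga8, Ntrk3 (a neurotrophin receptor), Dmd and Plcxd3. TC0700003543.mm.1 in Ntrk3 differed from normal aorta by -3.17 ± 0.28 (adjusted p = 1.45e-05) and TC1500000012.mm.1 in Plcxd3 by -2.88 ± 0.26 (adjusted p = 1.5e-05). Among rises, TC0100001633.mm.1 in the interferon-inducible locus of Pyhin1 reached 3.36 ± 0.95 (adjusted p = 0.0437), with 2.83 ± 0.98 in PPE (adjusted p = 0.113). The call after lenvatinib was lost with only the groups compared in the fit (adjusted p = 0.0546 in limma) and without normal aorta replicate 1, 2 or 3, PPE replicate 1, 2 or 6 or PPE + Lenva systemic replicate 1, 4, 5, 6 or 7, at adjusted p of up to 0.118. In Csmd1 12 of 18 members were higher, at 0.61 to 1.99. Near contractile genes 56 of 97 members were lower, with a median of -0.71, and near monocyte and macrophage genes 2 of 15 were higher. The normal arrays are shared with the first comparison.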

How the data were processed

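Total RNA of 18 aortas (5 normal, 6 PPE, 7 PPE + Lenva systemic, separate mice) was hybridised to the Mouse Transcriptome Array 1.0. The log2 signals per transcript cluster were summarised and normalised by the authors with SST-RMA in the Transcriptome Analysis Console 4.0.1.36 on mm10, per the methods and the submitters' processing notes, and were deposited for single arrays of 11121 clusters. For all 65956 clusters the authors deposited group averages and SDs in log2. The authors' fold changes and p-values stand in the same tables and were not used. Clusters without a gene symbol were compared with limma 3.58.1 in R 4.3.3, in 1 model of 3 groups, with a variance prior (2.14 df, SD 0.134) from the deposited SDs and Benjamini-Hochberg adjustment over all clusters. Clusters without single-array values were tested from averages and SDs. The script was tested on simulated data. The replicate numbers were not used as pairs in the main fit.

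Members were named by rule: the 8 largest called rises and falls against normal aorta, the 4 smallest p in each direction for lenvatinib, the largest called change per position class and annotation group, up to 2 per gene list, the 5 brightest, and antisense pairs of opposite sign. Members along long genes, at internal start sites, and those said to be chosen after their values were seen stand outside it. Members and lists were chosen with earlier results of these data known. RNA integrity numbers of the series ran from 5.7 to 9.8. The number of arrays limits the precision. The labels give no scan or hybridisation batch.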

Additional observations from a re-analysis of the deposited data

Results flagged for a closer look

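Of 120 group-wise checks of 40 distinct array profiles, 6 found 1 array set apart from the rest of its group, and chance alone gives about 1 in 20. In the Xkr4 member TC0100001892.mm.1 normal aorta replicate 5 read 7.33, with the next array at 8.66. In TC0300000520.mm.1 in Kcnab1, PPE + Lenva systemic replicate 2 read 9.10, with the next at 7.43. In TC0400000953.mm.1, beside the endothelial receptor gene Tek, PPE + Lenva systemic replicate 5 read 5.89, with the next at 5.14. In TC0100003744.mm.1 PPE replicate 4 read 4.04, with the next at 3.85, and in TC1800000320.mm.1 PPE replicate 1 read 3.99, with the next at 4.22. In TC1500001150.mm.1, opposite the complement gene C6, PPE replicate 6 read 3.92, with the next at 3.65.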

How the results depend on the processing

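No called direction of a named member reversed under any alternative tried. A change of sign was counted only where the member was called in the main fit or in the alternative. In PPE + Lenva systemic vs. PPE no member was called in the main fit, so the check covers almost no value there. In PPE vs. normal aorta 999 members were called. The count was 2742 with adjustment over the table of single-array values alone, which is a selected set, 215 with same-strand members left out, 421 at an adjusted p under 0.01 and 406 with a 2-fold minimum. In PPE + Lenva systemic vs. normal aorta the 1314 calls became 2928, 281, 499 and 450. With the replicate number as a block the counts were 570 and 688. Same-numbered arrays correlated between -0.575 and 0.492, with 6 of 16 pairs over 0.1 and a median of 0.045, against 0.008 for arrays of other numbers. Arrays numbered 4 correlated at 0.421, 0.303 and 0.492. Whether some numbers mark a shared step of processing cannot be told from these values, and the main fit did not use the numbers. Quantile normalization gave 241 higher and 897 lower (78.8% lower against 90.7%) in PPE and 380 higher and 1138 lower (75% against 85.1%) after lenvatinib. The other settings gave 848 to 1375 and 961 to 1500 calls. Leaving out 1 array gave 646 (PPE replicate 4) to 1116 (PPE replicate 5) calls in PPE vs. normal aorta, 856 (normal aorta replicate 3) to 1399 (PPE + Lenva systemic replicate 2) in PPE + Lenva systemic vs. normal aorta, and 0 to 1 in PPE + Lenva systemic vs. PPE, where the single call came without PPE replicate 4 (TC0100003744.mm.1). At least 641 of the 999 and 819 of the 1314 calls were kept. Rises in PPE numbered 25 to 196 and falls 613 to 920, and after lenvatinib rises numbered 56 to 250 and falls 800 to 1184. Rises moved by over 1.5 times in PPE without normal aorta replicate 2, 3 or 5 or PPE replicate 1, 2, 3, 4 or 5, and after lenvatinib without normal aorta replicate 1, 2, 3 or 4 or PPE + Lenva systemic replicate 1, 4 or 6. A near distance of 1 kb or 50 kb put 1758 or 9149 members near a named cluster, against 3930 at 5 kb. Where the construction of a setting does not itself show it, the cause was not tested. Levels near the low end of the scale and the ceiling of 19.93 limit what can be measured.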
